A study of Mus musculus with 7 samples.

Results

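Leydig cells are the interstitial cells of the testis that make testosterone, and the genes described here encode their receptors, hormones and identity factors: Lhcgr, Insl3, Nr5a1, Prlr, Scarb1, Pdgfra, Ptgds, Hpgds, Sult1e1 and Vcam1. The 10 genes were taken from a list of symbols, and a gene was measured where a probe set carried its symbol alone. By that rule 7 of the 10 were measured, out of 18193 genes in all, and the brightest probe set over all 7 arrays stood for each gene. Lhcgr and Prlr matched no probe set in the annotation table, and the 2 probe sets listed for Insl3 also carry the symbol of another gene, so these 3 genes are not analysed here. The list therefore has no value for the luteinizing hormone receptor, the prolactin receptor or the Leydig cell peptide hormone.

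The arrays measured RNA from whole testis of Phf13 knockout mice (3 arrays) and wild type mice (4 arrays), both aged 15 to 20 weeks. The protein made from Phf13 reads methylated histone tails through its PHD finger. The labels name the genotypes but give no allele, strain or treatment, and do not say whether each array was 1 animal, so the p-values rest on a spread between samples that may be technical. Values are log2 signals, so a difference of 1 is a doubling, and no detection calls were used here.

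Leydig cells answer luteinizing hormone through a cyclic AMP signal that drives cholesterol into the mitochondrion for steroid synthesis. The nuclear receptor Nr5a1, also called steroidogenic factor 1, switches on the genes of that route, and platelet-derived growth factor acting on Pdgfra is needed for adult Leydig cells to form. Scarb1 takes up cholesterol from high density lipoprotein, Ptgds and Hpgds are the lipocalin-type and haematopoietic prostaglandin D synthases, Sult1e1 sulfates and so inactivates oestrogens, and Vcam1 is an adhesion molecule of the cell surface. Several of these genes are also used by other testis cells, Nr5a1 and Scarb1 by Sertoli cells and Hpgds by mast cells and macrophages.

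The labels and the makeup of the samples were checked first. Phf13 averaged 5.86 ± 0.17 (log2 signal, SD, n = 3) in knockout testis against 8.64 ± 0.08 (SD, n = 4) in wild type, and the groups did not overlap. Knockout 2 and wild type 3 stood apart in 2 of 6 measured marker genes of the epididymis, the duct that adjoins the testis. Spink8 read 10.54 and 7.94 there against 3.70 to 4.28 on the other arrays, and Adam7 read 7.07 and 5.20 against 3.02 to 3.49. The other 4 did not set these arrays apart: Rnase10 read 6.25 and 5.79 there against 4.26 to 6.37 elsewhere, and Lcn5, Lcn8 and Lcn9 stayed between 2.91 and 4.69 on all arrays. The summed linear signal of the 6 markers was 1738 in knockout 2, 388 in wild type 3 and 93 to 151 in the others, and 6 of 6 had a mean below the median of tested genes. The values of the 7 genes are given below with and without these 2 arrays.

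Of the 7 measured Leydig cell genes, Nr5a1, Pdgfra, Ptgds and Vcam1 rose in knockout testis, 0 fell, and Scarb1, Hpgds and Sult1e1 did not pass the test. Here a gene rose or fell where limma's p, adjusted by the Benjamini-Hochberg method over all 18193 genes, was under 0.05. Over all genes tested, 9.06% rose and 7.03% fell, 16.1% in either direction. The median log2 fold change of the 7 was 0.52, beside −0.045 for all genes. Every knockout array lay above every wild type array for 4 of the 7, as for 12.8% of all genes (28.0% did not overlap in either direction). At an unadjusted limma p under 0.05, 5 of the 7 were higher and 0 lower, where 6145 of all 18193 genes passed in either direction. The balance of rises and falls depends on the scaling: 1649 rose and 1279 fell on the deposited scale, and 1634 rose and 2041 fell after centring by array medians, while the same 4 members passed under both. In bulk samples, more cells of a type and more RNA per cell cannot be told apart.

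**Figure D1:**
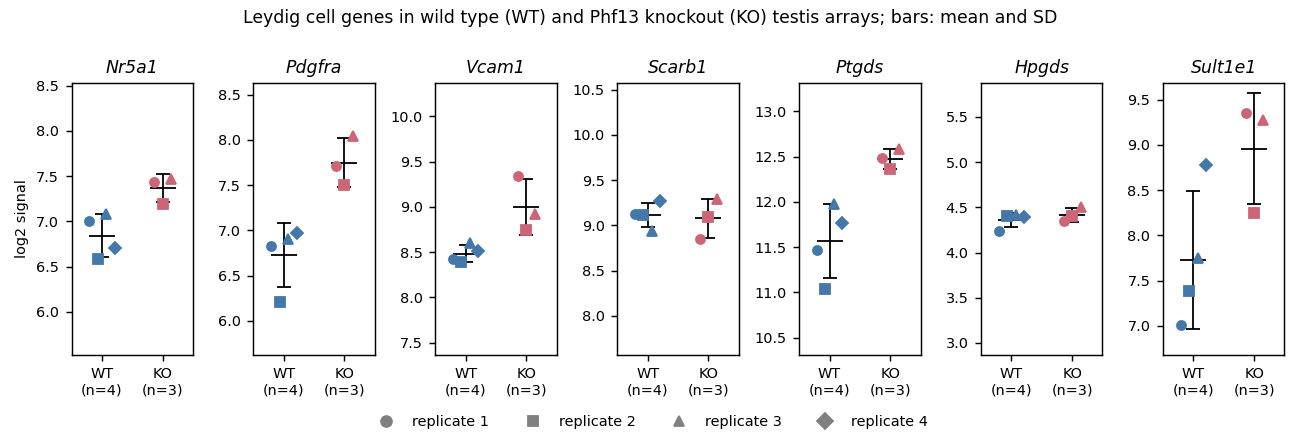
Log2 signal (vertical axis, each panel spanning the same number of log2 units) of the 7 measured genes in 4 wild type and 3 knockout arrays; points are arrays, shaped by replicate number, and bars are the mean and SD. Knockout arrays lie wholly above wild type arrays for Nr5a1, Pdgfra, Vcam1 and Ptgds and overlap them for Scarb1, Hpgds and Sult1e1.

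Nr5a1, the transcription factor of the group, read 7.44, 7.19 and 7.47 in knockout 1 to 3 and 7.0, 6.58, 7.08 and 6.71 in wild type 1 to 4. The groups did not overlap, but only 0.11 log2 units separated the lowest knockout array, knockout 2, from the highest wild type array, wild type 3. The means were 7.37 ± 0.15 (SD, n = 3) and 6.84 ± 0.24 (SD, n = 4). Nr5a1 thus rose by 0.52 on the log2 scale (SE 0.13, limma adjusted p = 0.0335), or 1.44-fold, with a 95% interval of 0.22 to 0.83. In an exact two-sided permutation test over the 35 divisions of the arrays p was 0.0571, where 0.0286 is the smallest p the design allows. Without knockout 2 and wild type 3, the arrays high in Spink8 and Adam7, the log2 fold change was 0.69 (limma adjusted p = 0.0415).

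Nr5a1 stayed past the threshold in 2 of 7 fits that left out 1 array, those without knockout 2 or wild type 3. Leaving out any of the other 5 arrays gave an adjusted p of 0.0623 to 0.113 (limma), and over all 7 fits the log2 fold change was 0.44 to 0.61. The dimmer of its 2 probe sets read 3.45 to 3.90 over all arrays and differed by 0.06. The mean of both probe sets gave a log2 fold change of 0.29 (limma adjusted p = 0.082).

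Pdgfra, the receptor tyrosine kinase, read 7.71, 7.50 and 8.04 in knockout 1 to 3 and 6.83, 6.21, 6.90 and 6.97 in wild type 1 to 4. All knockout arrays lay above all wild type arrays, with a gap of 0.53 log2 units, and wild type 2 was the lowest. Its log2 fold change of 1.02 (SE 0.20, limma adjusted p = 0.0163) was a 2.03-fold rise, with a 95% interval of 0.58 to 1.47 and an exact permutation p of 0.0286. Without knockout 2 and wild type 3 it was 1.20 (limma adjusted p = 0.0452). It stayed past the threshold in 5 of 7 fits with 1 array left out, and missed it without knockout 1 (adjusted p = 0.0527) and without knockout 3 (adjusted p = 0.0625).

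Pdgfra has 3 probe sets, and each was higher on average in knockout testis. The middle one averaged 5.22 against 4.73, without overlap, and the dimmest averaged 3.91 against 3.61, with overlap. With all 34945 probe sets of 1 symbol fitted together, of which 11.4% passed, the limma adjusted p of the 3 was 0.0193, 0.0627 and 0.185 from the brightest to the dimmest. The mean of all 3 gave a log2 fold change of 0.60 (limma adjusted p = 0.0257).

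Vcam1, the adhesion molecule, read 9.34, 8.74 and 8.92 in knockout 1 to 3 and 8.42, 8.39, 8.60 and 8.51 in wild type 1 to 4. Knockout 1 was the highest, and the wild type arrays lay within 0.21 log2 units of each other. Vcam1 rose by 0.52 (log2, SE 0.13, limma adjusted p = 0.0344), or 1.43-fold, with a 95% interval of 0.22 to 0.82 and an exact permutation p of 0.0286. It was 0.35 without knockout 1 (adjusted p = 0.063) and 0.69 without knockout 2 and wild type 3 (adjusted p = 0.0417). In 2 of 7 fits with 1 array left out, those without knockout 2 or wild type 3, it stayed past the threshold, and without any of the other 5 arrays its limma adjusted p was 0.0622 to 0.091.

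The other 2 probe sets of Vcam1 showed larger differences than the brightest one. The first averaged 8.80 ± 0.38 (SD, n = 3) in knockout arrays against 7.81 ± 0.17 (SD, n = 4) in the wild type, a difference of 0.99 (SE 0.17). The second averaged 7.69 and 6.92, a difference of 0.77 (SE 0.14). In the fit of all probe sets their limma adjusted p was 0.0159 and 0.017, against 0.0413 for the brightest. All 3 put every knockout array above every wild type array, so the size but not the direction varied with the probe set.

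Scarb1, the lipoprotein receptor, did not differ beyond the spread between arrays. It read 8.85, 9.09 and 9.29 in knockout 1 to 3 and 9.13, 9.11, 8.94 and 9.27 in wild type 1 to 4, so that the lowest and the highest array were both knockout. The means differed by −0.04 on the log2 scale (SE 0.11, limma adjusted p = 0.85), and the sign turned with quantile normalization (0.01). The 95% interval of −0.30 to 0.23 leaves out the estimates for Nr5a1, Pdgfra, Vcam1 and Ptgds. The intervals of Nr5a1 and Vcam1 begin at 0.22, however, and differences between genes were not tested. Its other 2 probe sets differed by −0.04 and 0.06. Without knockout 2 and wild type 3 the log2 fold change was −0.10 (limma adjusted p = 0.67).

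The 2 prostaglandin D synthases differed in what could be measured. Ptgds read 12.49, 12.36 and 12.58 in knockout 1 to 3 and 11.47, 11.04, 11.98 and 11.77 in wild type 1 to 4. The knockout arrays were within 0.22 log2 units of each other, while the wild type arrays spread over 0.94, from wild type 2 to wild type 3. Ptgds rose by 0.91 (log2, SE 0.20, limma adjusted p = 0.0220), or 1.88-fold, with a 95% interval of 0.46 to 1.36 and an exact permutation p of 0.0571. The second Ptgds probe set averaged 11.25 against 10.19, again without overlap, a difference of 1.06 (SE 0.21, limma adjusted p = 0.0212 among all probe sets).

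Ptgds stayed past the threshold in 4 of 7 fits with 1 array left out, and missed it without knockout 1 (adjusted p = 0.0687), without wild type 1 (0.0659) and without knockout 3 (0.0798). Wild type 3, one of the arrays high in Spink8 and Adam7, was the highest wild type array and knockout 2, the other, the lowest knockout array. Without both, the log2 fold change was 1.11 (limma adjusted p = 0.0415).

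Hpgds read 4.35, 4.40 and 4.50 in knockout 1 to 3 and 4.24, 4.40, 4.41 and 4.39 in wild type 1 to 4. The groups overlapped, and all values lay below the medians of tested genes on the arrays, 6.26 to 6.39. Hpgds differed by 0.06 (log2, SE 0.07, limma adjusted p = 0.595), with a 95% interval of −0.10 to 0.22, and by 0.08 without knockout 2 and wild type 3. The signal was not shown to lie above background, so this 1 probe set says little about the gene. Mast cell markers, 6 of 6 of them below the median of tested genes, had summed signals of 114 to 117 in knockout and 117 to 121 in wild type arrays.

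Sult1e1, the oestrogen sulfotransferase, had the largest average difference and the widest spread. It read 9.35, 8.25 and 9.27 in knockout 1 to 3 and 7.01, 7.38, 7.75 and 8.78 in wild type 1 to 4. Wild type 4 lay above knockout 2, so the groups overlapped, and the wild type arrays spanned 1.77 log2 units. The means differed by 1.23 (log2, SE 0.42, limma adjusted p = 0.0798), 2.34-fold, with a 95% interval of 0.27 to 2.18, and the exact permutation p was 0.114. Sult1e1 passed in 1 of 7 fits with 1 array left out, the one without wild type 4 (1.58, limma adjusted p = 0.028). Over all 7 fits its log2 fold change was 0.99 to 1.58 and its limma adjusted p reached 0.224. Without knockout 2 and wild type 3 together the adjusted p was 0.103.

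**Figure D2:**
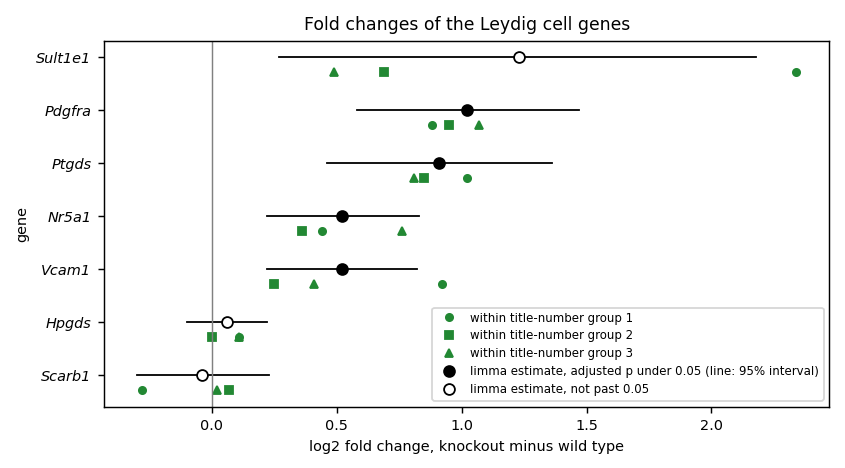
Log2 fold change, knockout minus wild type (horizontal axis), of the 7 genes: black circles are limma estimates with 95% intervals, filled where the adjusted p was under 0.05, and green symbols are differences within the 3 title-number groups. Pdgfra and Ptgds hold 0.81 or more in each group, Sult1e1 runs from 0.49 to 2.34, and Scarb1 and Hpgds lie near 0.

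The titles of the arrays open with a number of unstated meaning, and by its first 4 digits the arrays fall into 3 groups that each hold both genotypes. Group 1 holds knockout 1 and wild type 1, group 2 holds knockout 2 with wild type 2 and 3, and group 3 holds knockout 3 and wild type 4. Within groups 1, 2 and 3 the difference, knockout minus wild type, was 0.88, 0.95 and 1.07 for Pdgfra and 1.02, 0.85 and 0.81 for Ptgds. For Nr5a1 it was 0.44, 0.36 and 0.76, and for Vcam1 0.92, 0.25 and 0.41. Sult1e1 differed by 2.34, 0.69 and 0.49, Scarb1 by −0.28, 0.07 and 0.02, and Hpgds by 0.11, 0.00 and 0.11. So the 4 genes that rose, and Sult1e1, were higher in knockout testis within every group, by amounts that varied most for Sult1e1. With the groups as a block in limma, Pdgfra (adjusted p = 0.0262) and Ptgds (0.0443) stayed past the threshold, while Nr5a1 (0.061), Vcam1 (0.058) and Sult1e1 (0.0701) did not pass. Over all 18193 genes 1401 rose and 914 fell in that fit.

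**Figure D3:**
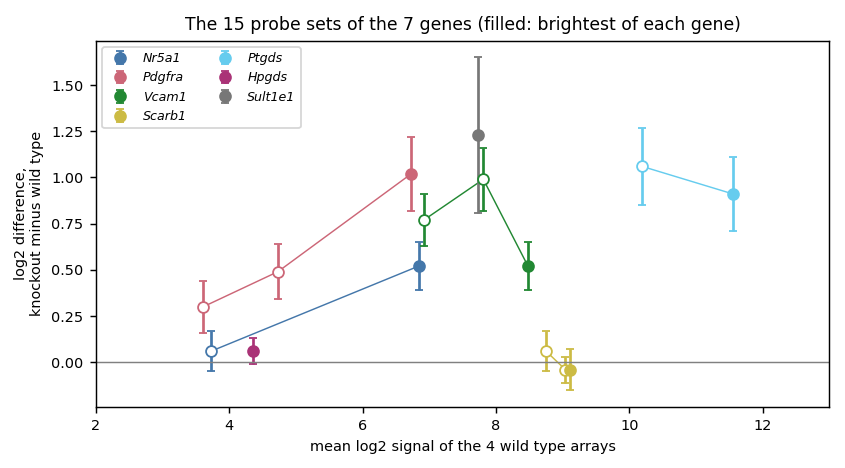
Log2 difference, knockout minus wild type, with its limma SE (vertical axis) against the mean log2 signal of the 4 wild type arrays (horizontal axis) for the 15 probe sets of the 7 genes; lines join probe sets of 1 gene and filled points are the brightest of each gene. The dimmer probe sets of Nr5a1 and Pdgfra show smaller differences than the brightest, those of Vcam1 larger ones, and the 3 of Scarb1 lie near 0.

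Promoter sequence was looked up because Ptgds and Pdgfra rose together with Nr5a1, whose protein binds DNA, and because Sult1e1 had the largest average difference. RefSeq promoters (GRCm38.p6) were held for 4 of the 7 measured genes, those 3 and Hpgds, and the 250 bases before the start are printed 5′ to 3′ on the gene's strand. They lie at chr2:25469750-25469999 (minus strand) for Ptgds, chr5:75152001-75152250 (plus strand) for Pdgfra and chr5:87591612-87591861 (minus strand) for Sult1e1. Capitals mark the Nr5a1 half-site, searched as AAGGTCA on both strands.
Ptgds: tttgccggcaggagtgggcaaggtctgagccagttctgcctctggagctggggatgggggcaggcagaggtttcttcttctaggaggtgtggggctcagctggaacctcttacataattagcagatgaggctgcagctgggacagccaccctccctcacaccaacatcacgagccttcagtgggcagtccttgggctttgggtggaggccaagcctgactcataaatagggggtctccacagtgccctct
Pdgfra: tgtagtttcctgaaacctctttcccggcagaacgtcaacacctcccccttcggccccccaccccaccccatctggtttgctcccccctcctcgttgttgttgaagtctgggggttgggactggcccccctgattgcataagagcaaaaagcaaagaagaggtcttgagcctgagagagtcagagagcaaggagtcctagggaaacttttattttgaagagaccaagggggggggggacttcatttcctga
Sult1e1: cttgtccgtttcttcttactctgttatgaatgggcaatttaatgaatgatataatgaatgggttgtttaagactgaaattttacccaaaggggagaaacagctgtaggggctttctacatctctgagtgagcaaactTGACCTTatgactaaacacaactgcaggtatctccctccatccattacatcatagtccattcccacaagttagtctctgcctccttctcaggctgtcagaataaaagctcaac
The half-site was found once, in Sult1e1 on the opposite strand, at positions −113 to −107 from the start. Of 32851 mouse promoter windows of this length, 4.08% hold it on either strand. A GATA site, searched as AGATAA on both strands, was found in none of the 4, and 9.99% of windows hold it. A match is only a match of letters, and these windows say nothing of binding.

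Other markers of Leydig cells gave the background for the measured genes. Of 9 measured, 6 rose (Cyp11a1, Cyp17a1, Fabp3, Igf1, Tspo and Aldh1a1) and 0 fell, and the median log2 fold change of the 9 was 0.85. The 3 that did not pass were Star (limma adjusted p = 0.059), Hsd3b1 (0.0644) and Hsd17b3 (0.0597). Cyp17a1 passed in only 1 of 7 fits with 1 array left out. At an unadjusted limma p under 0.05, 9 were higher and 0 lower, where 6145 of all 18193 genes passed in either direction. The mean log2 signal of the 9 markers was 9.85, 9.68 and 10.02 in knockout 1 to 3 and 8.96, 8.75, 9.20 and 9.19 in wild type 1 to 4. This difference of 0.83 was used to set each gene against the other markers of its own array, as a description with no test. The log2 fold changes of the markers themselves ran from 0.58 (Cyp11a1) to 1.14 (Igf1), so the relative values depend on the markers chosen.

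The brightest probe sets of Ptgds and Pdgfra moved by about as much as those markers: relative to their mean, Ptgds differed by 0.09 and Pdgfra by 0.20, and the genotypes overlapped for both. Scarb1 gave other values. Relative to the same mean it was −1.0, −0.59 and −0.73 in knockout 1 to 3 and 0.17, 0.36, −0.26 and 0.08 in wild type 1 to 4, so that all knockout arrays lay lower, by 0.86 on average. Scarb1 itself differed by −0.04, so nearly all of this is the marker mean's own difference of 0.83. Any gene without a change would give about the same, and the dim Hpgds gave −0.77. Nr5a1 and Vcam1 had relative differences of −0.30 and −0.31, and the genotypes overlapped for both. For Vcam1 the sign turned with the probe set, since its other 2 gave 0.17 and −0.06, and the dimmer ones of Pdgfra gave −0.33 and −0.53. The dim second probe set of Nr5a1 gave −0.77, and the second of Ptgds gave 0.24. The other 2 of Scarb1 gave −0.87 and −0.77, close to its brightest. Sult1e1 was 0.40 higher relative to the markers, with overlap.

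**Figure D4:**
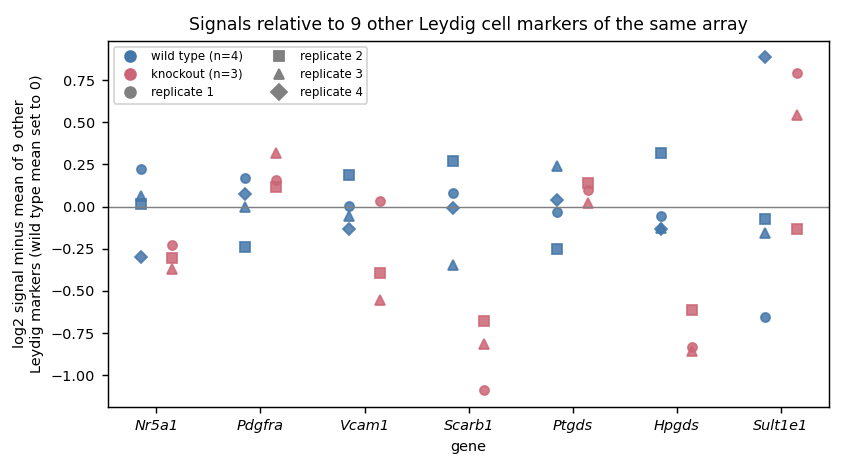
Log2 signal of each gene minus the mean log2 signal of 9 other Leydig cell markers on the same array (vertical axis, with the wild type mean of each gene set to 0); points are arrays, blue for wild type and red for knockout, shaped by replicate number. Knockout arrays lie below wild type arrays for Scarb1, by 0.86 on average, and for the dim Hpgds, and near them for Ptgds and Pdgfra. Scarb1 and Hpgds themselves differed little, so their lower place mostly shows the rise of the markers.

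Markers of other testis cells moved with the same comparison. Of 14 Sertoli cell markers 12 rose and 0 fell, with summed linear signals of 18484 to 20087 in knockout and 11044 to 14148 in wild type arrays, and 3 were below the median of tested genes. Of 13 macrophage markers 5 rose and 0 fell (3191 to 3802 against 3035 to 3264), with 6 below that median, and of 8 peritubular and smooth muscle markers 3 rose and 0 fell (3123 to 3366 against 2281 to 2555), with 1 below it. Aif1, by far the brightest gene of the macrophage list, weighs most in the macrophage sums and did not pass (log2 fold change −0.17). Whether macrophages gave its signal was not tested, so these sums say little about macrophages. Of 12 endothelial markers 0 rose and 0 fell by limma, 0 and 1 at an unadjusted p under 0.05, with 10 below that median and sums of 528 to 567 against 531 to 564. Of 12 germ cell markers 0 rose and 1 fell, the meiotic cyclin gene Ccna1 (−0.37), with sums of 70135 to 72422 against 71741 to 75000. With a block for title-number group 10 Sertoli, 2 macrophage and 3 peritubular markers rose, and of the macrophage genes Csf1r, Mrc1, C1qa and C1qc lost the call while Cd163 gained it. In that fit 1401 of all 18193 genes rose and 914 fell. The part of these cells in the values of Nr5a1, Scarb1, Pdgfra and Vcam1, which some of them also express, was not tested.

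Genes that act with the measured ones were taken from 8 lists of pathway partners. For scale, 9.06% of all genes tested rose and 7.03% fell. On the side of the luteinizing hormone receptor, 7 of 20 genes of cyclic AMP signalling rose and 0 fell (median log2 fold change 0.20). With a block for title-number group 5 of these 20 rose, and among the lists that follow the count fell from 5 to 3 for the partners of Nr5a1 and from 6 to 4 around Scarb1, and went from 4 to 5 in prostaglandin synthesis. Of all 18193 genes, 1401 rose with that block. Gnas, the G protein subunit that activates adenylyl cyclase, rose by 0.66 (SE 0.09), from 10.07 ± 0.17 (SD, n = 4) to 10.73 ± 0.04 (SD, n = 3). Adcy7, an adenylyl cyclase, rose by 0.77 (SE 0.12). Rxfp2, the receptor of the hormone that Insl3 encodes, had a log2 fold change of −0.24 (limma adjusted p = 0.0841).

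Of 14 measured transcription factors and cofactors that work with Nr5a1, 5 rose and 0 fell (median 0.22). Cited2, a coactivator of Nr5a1, rose by 0.84 (SE 0.12), and the oestrogen receptor gene Esr1 by 0.66 (SE 0.11). In prolactin signalling 2 of 10 genes rose and 0 fell (median −0.04): the kinase gene Jak2 by 0.61 (SE 0.14) and its target Stat3 by 0.42 (SE 0.09). With 1 array left out, Jak2 stayed past the threshold in 2 of 7 fits and Stat3 in 3.

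Among 6 PDGF genes other than Pdgfra the ligands parted. Pdgfc, a ligand of Pdgfra, rose by 1.04 (SE 0.15), from 5.58 ± 0.24 (SD, n = 4) to 6.63 ± 0.26 (SD, n = 3). Pdgfa, another ligand of the same receptor, fell by 0.38 on the log2 scale (SE 0.08), from 7.58 to 7.20. The other 4 did not pass, among them the receptor gene Pdgfrb (−0.20).

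Around Scarb1, 6 of 10 genes of lipoprotein reception and cholesterol export rose and 0 fell (median 0.38). The lysosomal receptor gene Scarb2, of the same family, rose by 0.69 (SE 0.10) and the cholesterol exporter gene Abca1 by 0.72 (SE 0.14), while Scarb1 did not pass. In prostaglandin synthesis and reception 4 of 16 rose and 0 fell (median 0.25). Pla2g4a, the phospholipase that frees arachidonic acid, rose by 1.12 (SE 0.13) and Hpgd, which breaks prostaglandins down, by 1.12 (SE 0.20). Neither receptor of prostaglandin D2 passed: Ptgdr had a log2 fold change of −0.22 and Ptgdr2 of −0.14.

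Of 10 genes of oestrogen handling and sulfation 3 rose and 0 fell (median −0.08). The sulfotransferase gene Sult1a1 rose by 0.73 (SE 0.14), and Papss2, which makes the sulfate donor, by 0.67 (SE 0.11). Of 12 adhesion partners of Vcam1, 1 rose and 0 fell (median −0.01), a share near the 9.06% of all genes that rose. That gene was Itgb1, the beta subunit of the Vcam1-binding integrin (0.59, SE 0.08), while Itga4, its alpha subunit, differed by 0.03 at a dim mean of 4.07 in knockout, and Msn had a log2 fold change of 0.46 (adjusted p = 0.0798). The naming rule took the genes of smallest unadjusted p in each partner list, from this same fit, and named 16. Of these 15 passed, with limma adjusted p of 0.00972 to 0.0263, a share that the choice by p itself makes high. All 15 stayed past the threshold when limma took the title-number group as a block, and 4 of them in every fit with 1 array left out. Those fits use the same arrays that chose the genes, so they are no separate check and do not speak for the lists as a whole. The wild type means of Pla2g4a (4.80), Papss2 (4.93), Pdgfc (5.58), Jak2 (6.12), Msn (6.18) and Sult1a1 (6.19) were below the array medians of tested genes, so the sizes of these differences are less certain.

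The genes whose profile over the 7 arrays was most like that of Nr5a1 were Sema7a, Nuak2 and Cpt1a. Likeness was the root mean square difference between profiles, each taken as log2 signal minus its wild type mean, and was 0.055, 0.065 and 0.0667. Their log2 fold changes were 0.51, 0.52 and 0.45. The likeness takes in the knockout arrays, so fold changes close to that of Nr5a1 follow from it and are no separate result. Among the measured Leydig cell genes Vcam1 was nearest to Nr5a1 (0.181) and Sult1e1 farthest (0.768).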

How the data were processed

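Whole testis RNA (2 ug, extracted with Trizol) was labelled as biotinylated cRNA and hybridised to Affymetrix arrays, per the labels' protocols. The authors deposited log2 signals for 45101 probe sets, made per the submitters' processing notes with Affymetrix Expression Console 1.4.1. The summarisation and normalization are not given in the sources used here. The log2 scale was read from the deposited values, none above 13.92, with array medians of 5.01 to 5.08. Arrays carry no read depth, so their number limits the precision.

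The platform's annotation table named the probe sets: 34945 carried 1 symbol, 932 several and 9160 none, and 64 controls were left out. Genotypes were compared over 18193 genes by lmFit and eBayes of limma 3.58.1 (R 4.3.3; two-sided), with Benjamini-Hochberg adjustment and a threshold of 0.05. The limma step was tested on simulated data. Exact permutation tests ran over 35 divisions of the arrays.

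Members and lists were chosen with earlier results of these data known. Named genes were all members, the 2 genes of smallest unadjusted p in each partner list, the 3 most like Nr5a1, and Phf13. Spink8, Adam7, the other epididymis genes, Rxfp2, Pdgfrb, Ptgdr, Ptgdr2, Itga4, Ccna1, Ptgs2 and the cell type markers named were picked outside this rule, after their values were seen. Alternatives were other scalings, filters, probe set rules, limma settings, blocks and left-out arrays. The fit of all probe sets and the omission of knockout 2 with wild type 3 were added after the data were seen.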

Additional observations from a re-analysis of the deposited data

Results flagged for a closer look

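The Hpgds signal of wild type 1, 4.24, lay apart from the other wild type arrays, which read 4.39 to 4.41. Its gap to the nearest array was 0.882 of the group's range, above Dixon's 95% critical value for 4 samples, which chance passes in about 1 of 20 groups. Of 27 named genes examined this way, 1 was past the limit.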

How the results depend on the processing

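The median log2 fold change of the 7 genes ran from 0.48 to 0.72 over the fits run. Pdgfra, Ptgds, Nr5a1 and Vcam1 stayed higher in knockout under all of them. The number of these genes past the threshold, 4 in the fit reported, was 2 with a block for title-number group and 0 to 4 with 1 array left out. It was 0 without knockout 1 and without knockout 3 (limma, 4 at an unadjusted p under 0.05 in each), 1 without wild type 1 and 2 without wild type 2. Over all genes 2928 passed, and 175 to 2572 with 1 array left out: 994 without knockout 1, 740 without wild type 1, 1363 without wild type 2 and 175 without knockout 3. Without knockout 3 and wild type 4 together 4 of all genes passed and 0 of the 7 (5 at an unadjusted p under 0.05), and without knockout 2 and wild type 3 together 1641 passed. These fits hold fewer samples, and the share of all genes past an unadjusted p of 0.05 is not given for them. The sign of Scarb1 turned with quantile normalization (0.01), the replicate block (0.02) and within the left-out fits (−0.14 to 0.08), where the cause was not tested. Nr5a1 lost its call with the mean of all probe sets (0.29). Without the dimmest 50% of genes 5 of the 6 members tested passed, Sult1e1 among them (adjusted p = 0.0439), and fewer genes were tested there. In that fit 1528 of 9094 genes rose and 1736 fell, against 1649 and 1279 of 18193 in the fit reported. With the replicate number as a block, 4 members passed (Sult1e1 at adjusted p = 0.02 in, Vcam1 at 0.0566 out) and 2294 genes in all. Deviations of same-numbered arrays correlated at 0.182 and 0.103 for replicates 1 and 2, which also share a title-number group. For replicate 3, whose arrays do not share one, the correlation was −0.143. Within title-number groups the correlations ran from 0.103 to 0.319, and outside them they were no more than 0.0227.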

Other observations

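Knockout 2, the array highest in Spink8 and Adam7, also stood apart in the cyclooxygenase gene Ptgs2, named after its values were seen, which read 6.54 there and 2.27 to 2.44 on the other 6 arrays.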
